A study of Mus musculus with 2 samples.

Results

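A set of 10 genes for proteins of neutrophil and eosinophil granules, and of the protein-rich cytosol around them, was followed in RNA-seq data from mouse testes at postnatal day 9 (P9). They (*S100a8*, *S100a9*, *Ngp*, *Camp*, *Ltf*, *Lcn2*, *Elane*, *Mpo*, *Prg2* and *Stfa2*) were taken by symbol from the 39695 gene entries, and all 10 had an entry. The genes had been picked with the control and mutant values of these same libraries in view, so the differences given for them are descriptions and were not tested. The data comprised 1 control library and 1 *Bcas2*F/-;*Vasa-Cre* library from whole testes of 9-day-old males. Males of both groups had 1 floxed and 1 deleted copy of *Bcas2*. The *Bcas2*F/-;*Vasa-Cre* males, called mutant from here on, also had *Vasa-Cre*, a transgene that drives Cre in germ cells, and the controls did not. The labels give the strain as C57BL/6, the methods of the study describe a mixed background, and the number of mice behind each library was not named. *Bcas2*, which encodes a splicing factor, was chosen for deletion to learn what it does in male germ cells. Whole testes also hold somatic cells and blood.

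Neutrophils are short-lived phagocytes that leave the bone marrow loaded with ready-made proteins. Primary (azurophil) granules form first, in promyelocytes, and hold myeloperoxidase and serine proteases such as neutrophil elastase. Specific and gelatinase granules form later, in myelocytes and metamyelocytes, and hold lactoferrin, the cathelicidin peptide, neutrophilic granule protein and lipocalin 2. The cytosol of mature cells is packed with the calcium-binding proteins S100A8 and S100A9, which pair as calprotectin, and in mice also with stefins, small inhibitors of cysteine proteases. Eosinophils carry a different load, led by major basic protein, the product of *Prg2*. The mRNAs of granule proteins are made mostly in precursors in the marrow, whereas *S100a8* and *S100a9* mRNAs stay abundant in circulating neutrophils.

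The deposited RPKM values, which scale the reads of a gene by its length and by the size of the library, came from 19918750 counted reads for the control and 19331687 for the mutant. Whole reads were recovered from them gene by gene, because the members were low. Each of the 10 genes had between 2 and 105 reads over both libraries. The RPKM of *Bcas2* itself was 39.5 in the control against 25.7 in the mutant library, a direction that fits the labels. With 1 library per genotype no difference has a replicate check, no p-value is given, and the 95% Clopper-Pearson intervals cover counting error only.

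The granulocyte genes were lower in mutant testes as a set, but unevenly. In reads, the control library held 422 from the 10 genes and the mutant library 86, or 21.2 and 4.45 per 1000000 reads, a 4.76-fold difference (95% interval of counting error 3.77 to 6.08). RPKM was lower for 9 genes and marginally higher for *Elane*, which had 1 read in each library. Fewer granulocytes and less of these mRNAs per granulocyte cannot be told apart in a whole tissue. Of the 10 genes, 7 reached a mean RPKM of 1 over both libraries, the level required of any gene counted here, and *Ltf*, *Elane* and *Mpo* did not. *S100a8*, *S100a9*, *Ngp*, *Prg2* and *Stfa2* had an RPKM above 1 in the control library alone, so passing the filter did not happen independently of the difference. On the scale of log2(RPKM + 1), which understates the difference of low genes, 6 of the 7 were more than 1.5-fold lower in mutant testes, against 1.69% of the 14831 genes at this level. At more than 2-fold lower there were 5 of the 7, against 0.378%. None of the 7 was more than 1.5-fold higher, against 1.57%. The members were picked from this contrast, so these shares describe them and test nothing. The median log2 ratio was −1.58 over the 7 genes and −1.03 over all 10, beside 0.015 over all genes tested.

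**Figure D1:**
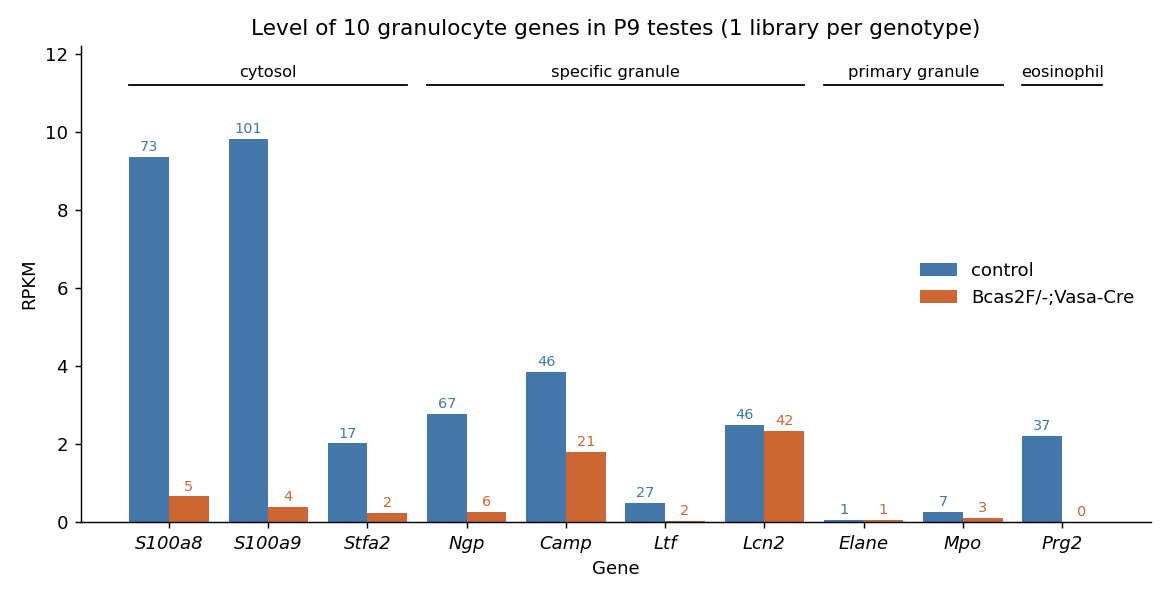
RPKM (vertical axis) of the 10 genes (horizontal axis, grouped by where their product is kept) in the control library (blue) and the Bcas2F/-;Vasa-Cre library (orange), with the recovered reads above each bar and no error bars because each bar is 1 library. S100a8 and S100a9 stand at 9.35 and 9.83 in the control and below 1 in the other library, whereas the bars of Lcn2 are nearly level.

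*S100a8* and *S100a9*, the calprotectin subunits, were the highest of the 10 genes in control testes and showed the largest differences on the log2(RPKM + 1) scale. *S100a8* (chromosome 3, 90668978 to 90670035 of GRCm38, plus strand) had an RPKM of 9.35 in the control and 0.660 in the mutant library, from 73 and 5 reads. It was 14.2-fold lower, with an interval from 5.8 to 44.9, and had a log2 ratio of RPKM + 1 of −2.64. *S100a9* (chromosome 3, 90692632 to 90695721, minus strand) had an RPKM of 9.83 and 0.401, from 101 and 4 reads. It was 24.5-fold lower (9.28 to 91.7), with a log2 ratio of −2.95. The intervals of both genes overlap, so their differences are not ordered by these reads. Per unit length, their control levels were alike. Among the 14831 genes, *S100a9* had the 4th and *S100a8* the 6th lowest log2 ratio. Together they supplied 174 of the 422 control reads of the set and 9 of the 86 reads in mutant testes.

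The other S100 genes around the pair differed little where they could be measured. *S100a8* and *S100a9* lie 22.6 kb apart at one end of a run of S100a genes, of which 10 others within 200 kb had an entry. Of these, 5 had a mean RPKM of at least 1, and their log2 ratios ran from −0.12 to 0.19. *S100a6*, which is active in many cell types, had an RPKM of 64.7 in the control and 62.7 in the mutant library. *S100a4* had 3.51 and 3.26, and *S100a1* 13.2 and 12.0. The remaining neighbours were near the floor of detection, including *S100a7a*, the gene closest to *S100a8* on its upstream side, with 5 reads and 1 read.

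Promoter letters were examined because C/EBP and PU.1 proteins are known drivers of granulocyte genes. RefSeq starts were available for 9 of the 10 genes, without *Prg2*, and the 250 bases before each start were searched on both strands for a C/EBP-type motif, TTGCNNAA, and a PU.1-type motif, GAGGAAG. The first was present for *S100a9*, *Ngp*, *Ltf* and *Lcn2*, 4 of 9, and in 9.56% of the 32851 promoters in the table. The second was present for *S100a8*, *Lcn2*, *Elane* and *Mpo*, also 4 of 9, and in 10.6% of all promoters. *Camp* and *Stfa2* held neither. The 4 stretches of 60 bases that hold a match and no annotated exon are shown, with the matching letters in capitals (RefSeq sequence, GRCm38.p6, 5′ to 3′ on the gene's strand).
*S100a8*, chr3:90668874-90668933, plus strand, PU.1-type on the opposite strand: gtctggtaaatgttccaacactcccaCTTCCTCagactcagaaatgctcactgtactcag
*S100a9*, chr3:90695912-90695971, minus strand, C/EBP-type: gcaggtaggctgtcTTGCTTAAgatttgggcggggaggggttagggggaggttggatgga
*Ngp*, chr9:110419644-110419703, plus strand, C/EBP-type: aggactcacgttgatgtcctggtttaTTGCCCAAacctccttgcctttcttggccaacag
*Ltf*, chr9:111019191-111019250, plus strand, C/EBP-type on the opposite strand: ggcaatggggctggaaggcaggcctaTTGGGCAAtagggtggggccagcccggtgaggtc
The matches begin 171, 236, 138 and 75 bases before the RefSeq start in this order. *Lcn2* held a C/EBP-type match 216 bases and a PU.1-type match 21 bases before its start. A match of letters is not a bound site.

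*Stfa2*, the stefin among the 10 genes (chromosome 16, 36403992 to 36408457, minus strand), had an RPKM of 2.02 in the control and 0.245 in the mutant library. These are 17 reads and 2 reads, an 8.25-fold difference whose interval runs from 1.96 to 73.6. Stefins sit in a cluster of near copies, and 7 of its 10 genes with an entry had reads. All 7 had a lower RPKM in the mutant library, but not all had enough reads to give a direction. *BC117090* had 2 and 0 reads and *Gm5416* had 1 and 0. The share of all genes with a lower RPKM was not taken. *Gm5483* had an RPKM of 2.30 and 0.375, and *Stfa2l1* had 10 reads and 1 read, 9.71-fold lower with an interval from 1.38 to 421. *Stfa3* and *BC100530* had 1.34 and 1.29 in control and were listed at 0 in mutant testes. Their control values came from 11 and 13 reads, and the counting intervals began at 2.44-fold lower for *Stfa3* and 2.96-fold lower for *BC100530*. *Stfa1*, *Csta1* and *2010005H15Rik* were listed at 0 in both libraries. The list of cytosolic neutrophil proteins held 9 genes, members included, of which *S100a8*, *S100a9*, *Stfa2* and *Gm5483* passed the filter, each through the control library alone. All 4 were more than 1.5-fold lower, against 1.69% of all genes at this level, and 3 of them are members picked for it. Over the 6 genes of that list that are not members, RPKM summed to 6.41 in control and 0.5 in mutant testes.

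The values of *Stfa2* and *Stfa2l1* are uncertain, because their coding sequences are nearly the same and a read may align to both. The other copies differ more, and how many reads aligned to several genes was not measured. The stretch from base 91 to base 180 of the *Stfa2* coding sequence is shown with its counterparts, and capitals mark the bases that differ from *Stfa2* (GENCODE M21 transcripts, GRCm38, chromosome 16).
*Stfa2*: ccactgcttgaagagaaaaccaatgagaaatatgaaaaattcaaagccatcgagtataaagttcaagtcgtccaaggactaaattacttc
*Stfa2l1*: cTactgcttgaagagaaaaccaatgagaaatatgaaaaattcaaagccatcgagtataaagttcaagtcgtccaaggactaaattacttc
*Gm5483*: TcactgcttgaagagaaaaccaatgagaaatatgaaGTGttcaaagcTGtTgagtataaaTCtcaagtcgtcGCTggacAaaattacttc
*Stfa3*: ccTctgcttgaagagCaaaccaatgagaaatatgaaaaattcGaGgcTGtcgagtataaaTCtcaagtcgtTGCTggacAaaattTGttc
*BC100530*: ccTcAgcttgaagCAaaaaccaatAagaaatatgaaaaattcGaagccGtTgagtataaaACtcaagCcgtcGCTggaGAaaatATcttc
*Stfa2l1* differs from *Stfa2* at 1 of these 90 bases and *Gm5483* at 13, whereas *Stfa3* differs at 15 and *BC100530* at 18. Over the whole coding sequence *Stfa2l1* is 96.5% identical to *Stfa2* and shares an unbroken run of 97 bases with it. For *Stfa3*, *BC100530* and *Gm5483* the identity is 81.1%, 80.6% and 83.3%, with no shared run longer than 35 bases.

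**Figure D2:**
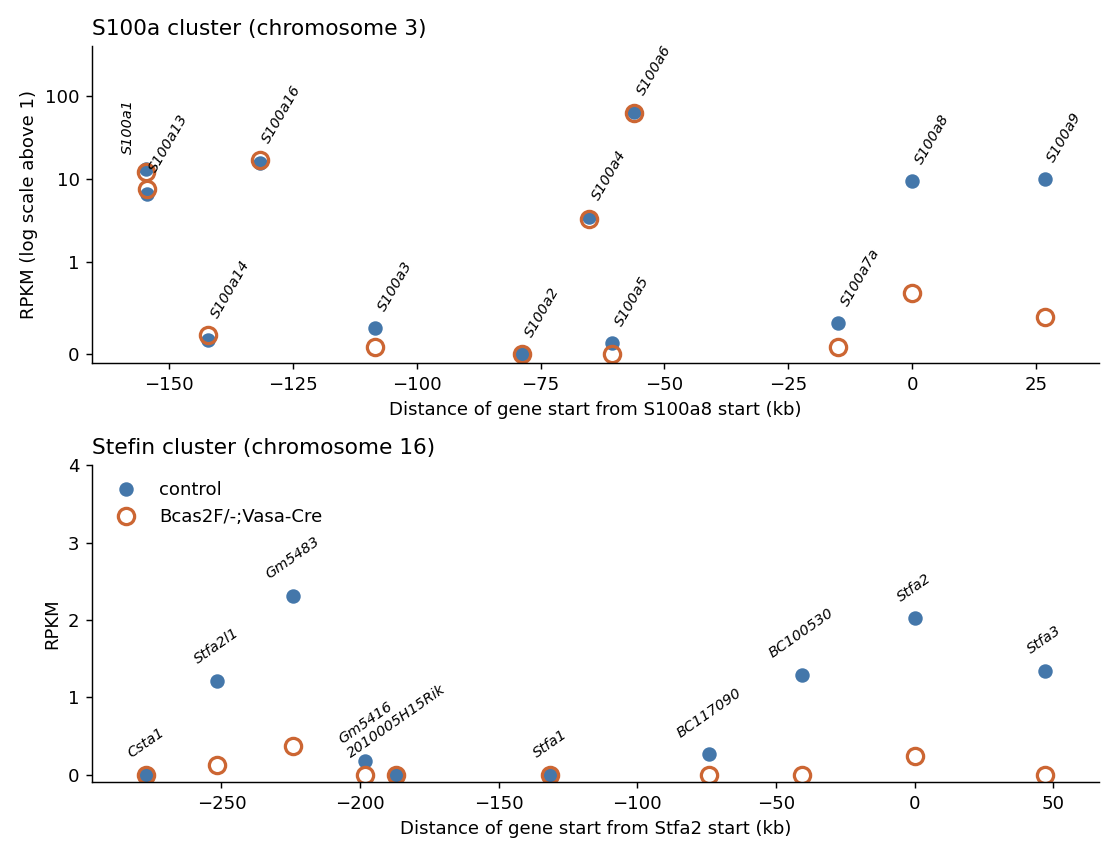
RPKM (vertical axes, logarithmic above 1 in the upper panel and linear in the lower) of the S100a genes around S100a8 and of the stefin cluster around Stfa2, against the distance of each gene's start in kb (horizontal axes, towards higher coordinates to the right), for the control library (filled blue) and the Bcas2F/-;Vasa-Cre library (open orange). The symbols of S100a6, S100a16, S100a1 and S100a4 nearly coincide while those of S100a8 and S100a9 are far apart, and every stefin with control reads has its open symbol below the filled one. BC117090 and Gm5416 had at most 2 control reads.

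The proteins of the specific granules gave no single picture, since *Ngp* and *Ltf* were more than 10-fold lower, *Camp* was 2.13-fold lower and *Lcn2* differed by 1.06-fold. *Ngp*, which encodes neutrophilic granule protein, a relative of the cathelicidins and cystatins (chromosome 9, 110419747 to 110423012, plus strand), had an RPKM of 2.76 in the control and 0.255 in the mutant library. Its 67 and 6 reads make it 10.8-fold lower, with an interval from 4.73 to 30.6. *Ltf* encodes lactoferrin, which binds iron (chromosome 9, 111019271 to 111042767, plus strand), and its RPKM was 0.494 and 0.0377. The length recovered for it from the deposited values was 2742 bases, so an RPKM below 1 in control still rested on 27 reads, against 2 in mutant testes. The ratio was 13.1-fold, with an interval from 3.29 to 114. On the log2(RPKM + 1) scale *Ltf* had a ratio of only −0.53 and would not be counted as more than 1.5-fold lower even without the filter.

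*Camp*, the gene of the antimicrobial cathelicidin peptide (chromosome 9, 109847379 to 109849617, minus strand), had an RPKM of 3.84 in the control and 1.81 in the mutant library, from 46 and 21 reads. The interval of its ratio, from 1.24-fold to 3.75-fold lower, did not overlap those of *S100a8*, *S100a9* and *Ngp*. *Lcn2* (chromosome 2, 32384633 to 32388252, minus strand), whose product lipocalin 2 withholds iron from bacteria by binding their siderophores, had an RPKM of 2.49 and 2.34. Its 46 and 42 reads give a ratio of 1.06-fold lower, with an interval from 0.684 to 1.66. In control testes *Lcn2* and *Camp* had the same number of reads. *Camp*, *Ngp* and *Ltf* lie on the same stretch of chromosome 9, with 570.1 kb between *Camp* and *Ngp* and 596.3 kb between *Ngp* and *Ltf*. Without *Lcn2* the set had 376 reads in control and 44 in mutant testes, 8.29-fold lower (6.06 to 11.6), against 4.76-fold with it. Leaving out a gene with a ratio near 1 raises the fold of the rest by construction. The value describes the other 9 genes and tests nothing.

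Of the 4 further genes of specific and gelatinase granules, 1 passed the filter and it was not past 1.5-fold in either direction. That gene was *Mmp9*, gelatinase B, with 64 reads in the control and 75 in the mutant library. *Chil3*, a chitinase-like protein of neutrophil precursors and macrophages, had 12 reads in the control and 0 in the mutant library, and its counting interval began at 2.7-fold lower. *Olfm4*, a marker of a neutrophil subset, had an RPKM of 0.245 and was listed at 0 in the other library. The whole list of 8 genes, members included, had 2 of the 4 genes past the filter more than 1.5-fold lower, none higher, and a median log2 ratio of −0.42. Those 2, *Ngp* and *Camp*, are members picked from this contrast, and 1.69% of all genes at this level were as much lower. Over the 4 genes that are not members the median was −0.21.

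Both members from primary granules were barely detected. *Elane*, neutrophil elastase (chromosome 10, 79886247 to 79888215, plus strand), had 1 read in each library, with an RPKM of 0.0546 in control and 0.0562 in mutant testes, and no ratio is given at this depth. *Mpo*, myeloperoxidase (chromosome 11, 87793581 to 87804413, plus strand), had an RPKM of 0.271 and 0.119 from 7 and 3 reads. The interval of its ratio ran from 0.517-fold to 13.6-fold lower, so a difference in either direction was not detectable. *Mpo* overlaps *Gm11505*, an antisense gene listed at 0, and since the counting was not stated to use strand, reads of both cannot be told apart. Among the 4 other genes of the list, *Prtn3* (proteinase 3) had an RPKM of 2.47 and 2.24 from 34 and 30 reads. *Ctsg* (cathepsin G) had 3 reads and 1 read, and *Prss57*, another serine protease, had 5 and 0. *Ms4a3*, a gene of granulocyte precursors, was listed at 0 in both libraries. No primary granule gene was past 1.5-fold in either direction, and only *Prtn3* was high enough to be counted.

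*Prg2* was the member from eosinophils and the only one of the 10 with no read in mutant testes. It encodes the proform of major basic protein, the toxic protein of the eosinophil granule core (chromosome 2, 84980461 to 84983632, plus strand). Its RPKM was 2.22 in control, from 37 reads, and it was listed at 0 in the other library, where 3 reads would have been an RPKM of 0.185. With those 3 reads in place of 0 it would be 12-fold lower, and the counting interval, which includes the error of the control reads, began at 9.26-fold lower. Of the 16420 genes with at least 10 control reads, 17 (0.104%) had 0 reads in mutant testes. That share has no upper limit on reads and includes genes far deeper than *Prg2*, which could hardly have 0. *Prg2* was also picked from this contrast, so the share is no test of it.

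For the other eosinophil genes no difference was detectable at this depth. Of the 6 further granule genes in the list, 1 passed the filter and it was not past 1.5-fold in either direction. *Epx*, eosinophil peroxidase, had 7 and 4 reads, with an interval from 0.432-fold to 7.91-fold lower. *Ear1*, an eosinophil-associated ribonuclease and the gene that passed, had 12 and 15 reads and an RPKM of 0.978 and 1.26. *Ear2* had 6 and 2 reads and *Ear6* 3 and 0, although these ribonucleases are near copies of each other and their reads are uncertain. *Prg3*, the close relative of *Prg2*, had 1 read in control and 0 in the other library. The eosinophil surface genes *Siglecf* and *Ccr3* had 12 and 17 reads and 3 and 4 reads. *Il5ra*, the receptor for interleukin 5, was listed at 0 in the control and had an RPKM of 0.0304 in the mutant library. All 3 surface genes had a higher RPKM in mutant testes, at levels where the counting intervals of *Siglecf* and *Ccr3* cover both directions. Defining markers of eosinophils were thus low in both libraries, and among the eosinophil genes *Prg2* alone had a counting interval that lay wholly on the lower side.

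**Figure D3:**
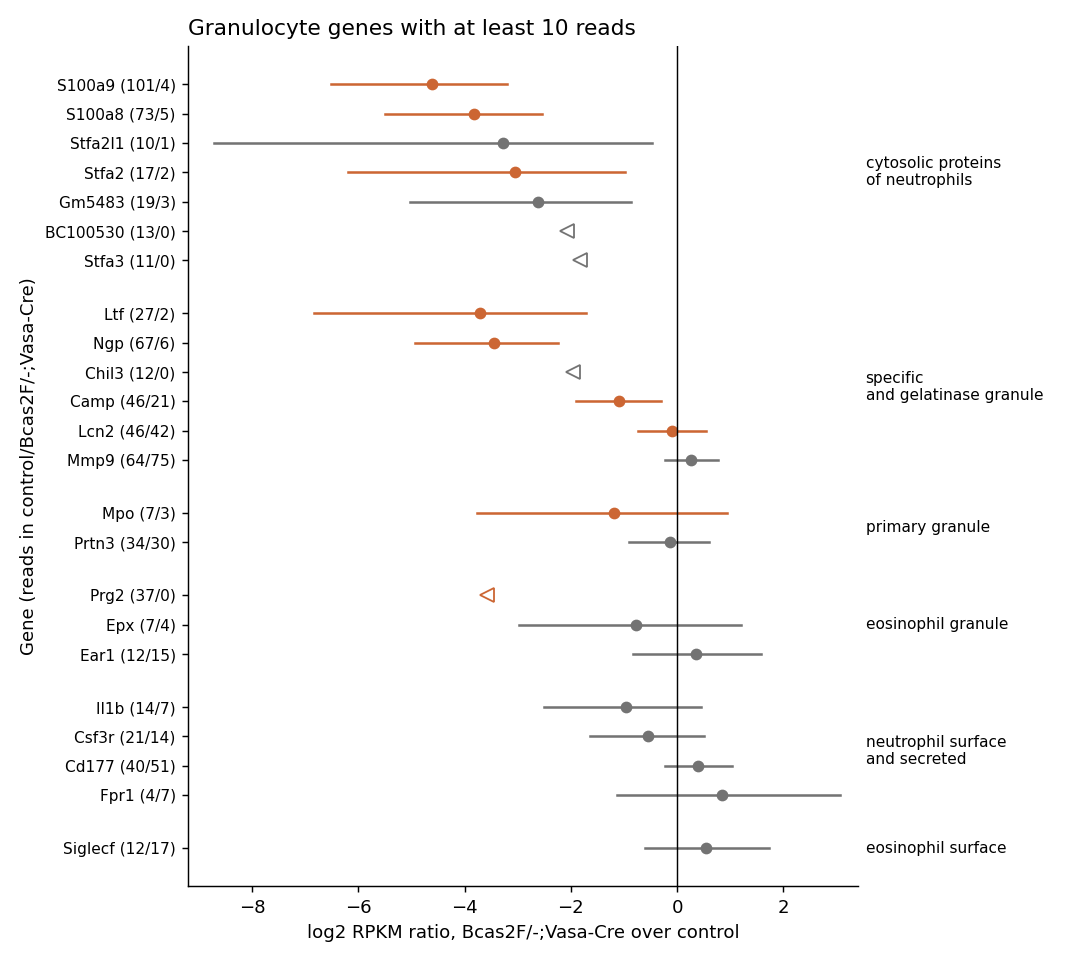
Log2 RPKM ratio without a pseudocount (horizontal axis, negative when lower in Bcas2F/-;Vasa-Cre testes) of each granulocyte gene with at least 10 reads over both libraries (vertical axis, reads in brackets), with bars for 95% Clopper-Pearson intervals of counting error, members in orange and other genes in grey. Open triangles mark genes with 0 reads in the Bcas2F/-;Vasa-Cre library, placed where 3 reads would put them, and the reads of Gm5483 are known only up to a whole factor. The cytosolic genes lie wholly to the left of 0, while Lcn2, Mmp9, Prtn3, Cd177 and Siglecf lie around it.

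The neutrophil label was also set against genes that are not members, which were likewise chosen with results of these data known. Of 9 neutrophil surface and secreted genes, none reached a mean RPKM of 1. *Ly6g*, the usual surface marker of mouse neutrophils, was listed at 0 in both libraries. *Cd177*, a surface glycoprotein of neutrophils, had 40 reads in control and 51 in mutant testes. *Csf3r*, the receptor for the growth factor of neutrophils, had 21 and 14. *Il1b*, an inflammatory cytokine, had 14 and 7. *Retnlg*, a resistin-like gene of mature neutrophils, had 3 reads and 0. Summed over the list there were 94 reads in control and 83 in mutant testes, a ratio of 1.1-fold lower (0.809 to 1.49). RPKM was lower in mutant testes for 6 of the 9 genes and higher for 2. *Cd177*, which was higher, supplied 40 of the 94 and 51 of the 83 reads, so the sum leans on it. With *Cd177* included, a difference of the summed surface genes was not detectable beyond counting error at this depth. No sum without *Cd177* was taken, so the other surface genes as a set are left without a result.

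Transcription factors of the lineage were next examined. Of the 6 factors, 4 passed the filter and none was past 1.5-fold. *Cebpa* had an RPKM of 9.57 in the control and 10.2 in the mutant library, *Cebpd* had 6.51 and 6.88, and *Cebpb* had 2.44 and 1.89, but these genes are active in many cell types. *Gfi1*, which acts in granulocyte precursors, had 0.584 and 0.226 and did not reach the filter. It was 2.59-fold lower, with an interval from 1.16 to 6.33 if its reads, known only up to a whole factor, are as recovered. *Spi1*, the gene of PU.1 in granulocytes and macrophages, had 3.52 and 3.28. The 4 genes of neutrophil attraction and growth were low, with *Cxcl1* at an RPKM of 0.685 and 0.326 and *Cxcl2* at 0.143 in the control and listed at 0 in the mutant library. Summed over these 4 genes there were 20 reads in control and 7 in mutant testes, 2.77-fold lower with an interval from 1.13 to 7.76, although the reads of *Cxcl1* and *Cxcl2* too are known only up to a whole factor.

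The values of all genes of like level are given as background, and since the members were picked from this contrast nothing is read from the comparison. Genes with a mean RPKM from 1 to 10 were past 1.5-fold lower in 3% of 6161 cases and past 2-fold lower in 0.779%. The 8 members with more than 10 control reads had between 19 and 105 reads over both libraries. The counting interval lay wholly below 0 for 7 of these 8, all but *Lcn2*, and for 5.94% of the 3483 genes with reads in that range, which were not taken by their control reads as the 8 were. Of the genes with at least 30 reads and a mean RPKM of at least 1, 25 were more than 2-fold lower, 18 of them protein-coding, and *S100a9*, *S100a8*, *Prg2* and *Ngp* were 4 of the 25. With 2 libraries a likeness of pattern is no more than a likeness of ratio, so no genes are named as following the members.

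**Figure D4:**
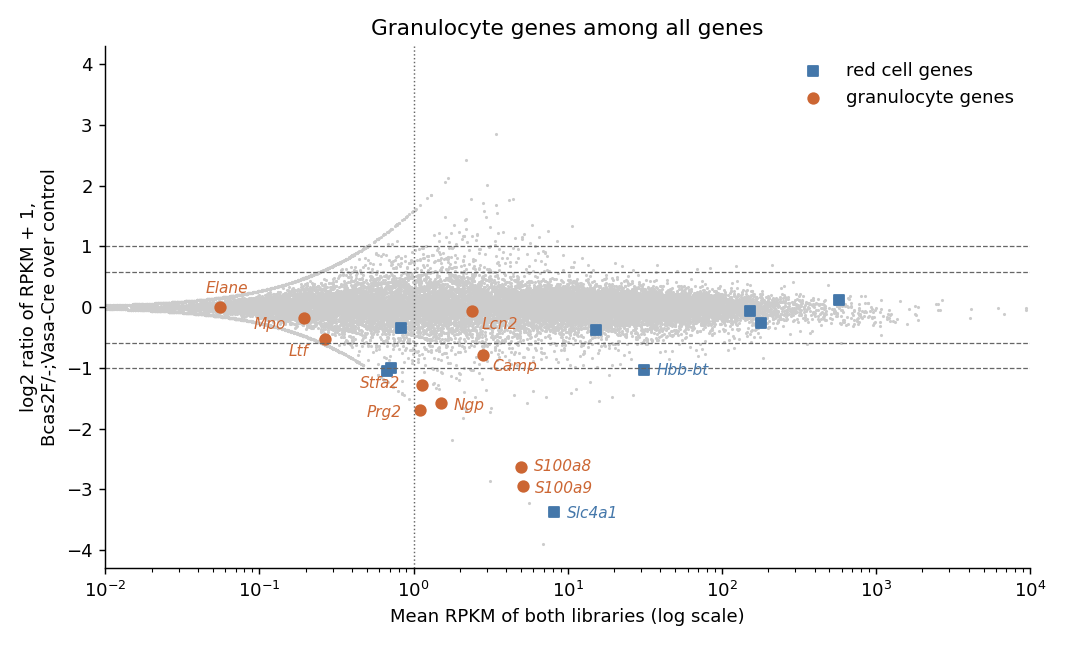
Log2 ratio of RPKM + 1 (vertical axis) against mean RPKM of both libraries (horizontal axis, logarithmic) for all genes with reads (grey), the 10 granulocyte genes (orange circles) and the red cell genes (blue squares), with dashed lines at 1.5-fold and 2-fold and a dotted line at the filter of 1. S100a8 and S100a9 lie near the lower edge with Slc4a1, and the curved edges at low RPKM show how the pseudocount holds Ltf, Mpo and Elane close to 0.

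Some red cell genes also had low ratios, while RPKM summed over the list differed little. *Slc4a1*, the band 3 anion exchanger of the red cell membrane, had an RPKM of 15.7 in the control and 0.607 in the mutant library, from 373 and 14 reads. *Epb42*, a membrane skeleton protein, had 46 and 3 reads. The most abundant globin gene, *Hbb-bs*, had an RPKM of 551 and 596, and *Hba-a1* had 197 and 164, while another adult beta globin gene, *Hbb-bt*, had 42.4 and 20.3. Globin genes are near copies, so their values are uncertain. Of 9 red cell genes with an entry, 6 passed the filter and 2 of these, *Slc4a1* and *Hbb-bt*, were more than 1.5-fold lower. RPKM summed over the list was 983 in control and 945 in mutant testes. Their part in the granulocyte result was not tested.

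Among markers of the other cells that whole testes hold, red cells aside, none that passed the filter differed as much as the calprotectin genes. *Slc4a1* of red cells differed more, with a log2 ratio of −3.38. Of the 10 macrophage genes, 9 passed the filter and none was past 1.5-fold. *Lyz2*, lysozyme, which neutrophils also make, had an RPKM of 59.1 and 43.6, and *C1qb* had 19.3 and 14.3. The summed RPKM of the list was 146 in control and 118 in mutant testes. Of 5 mast cell genes, 4 passed and none was past 1.5-fold, with *Mcpt4* at 4.16 and 3.19 and *Cpa3* at 1.90 and 2.60. Of 5 platelet genes, 2 passed and none was past 1.5-fold, with *Pf4* at 18.5 and 15.4. None of the 6 lymphocyte genes passed the filter, and *Cd3g* was the highest of them at 1.05 and 0.898. All 8 germ cell genes had a lower RPKM in mutant testes, with a median log2 ratio of −0.37, and *Stra8*, the gene that marks entry into meiosis, was the 1 past 1.5-fold, at 87.2 and 56.8. Of 5 Sertoli cell genes 4 passed and none was past 1.5-fold, with *Amh* at 134 and 172. Of 5 Leydig cell genes, all passed and 1, *Cyp17a1*, was more than 1.5-fold higher, at 94.8 and 152. Whether the make-up of the tissue had a part in the granulocyte values was not tested.

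**Figure D5:**
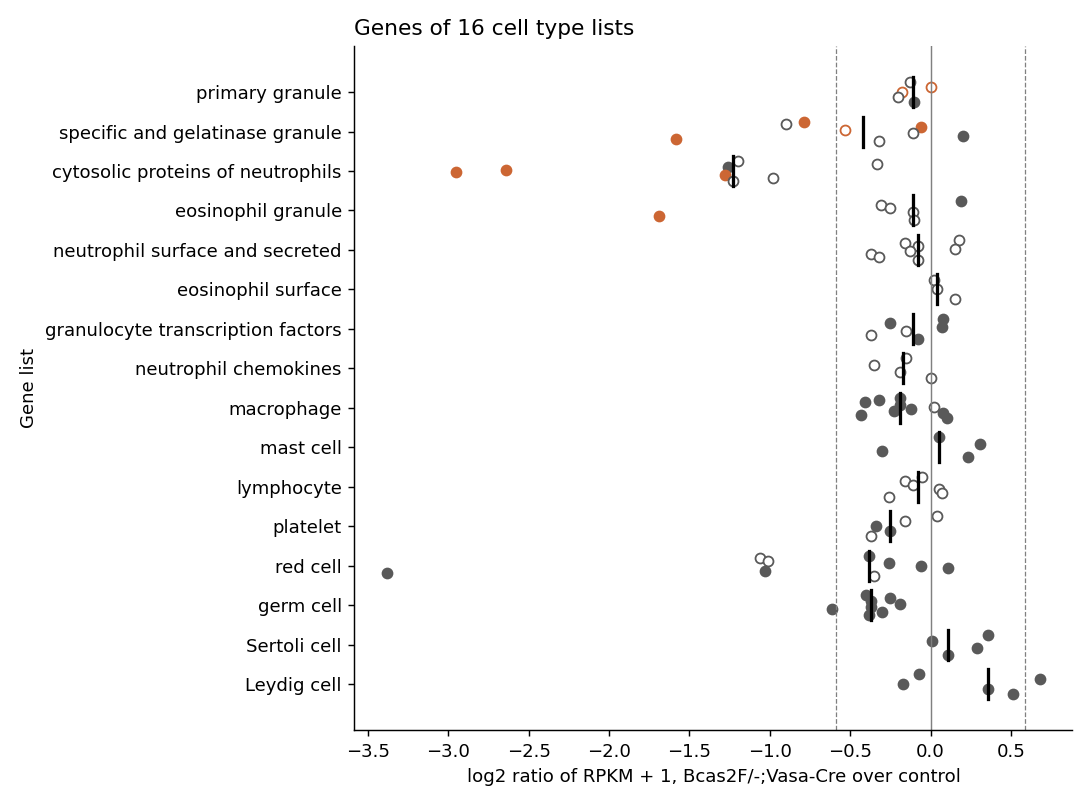
Log2 ratio of RPKM + 1 (horizontal axis) of each gene with reads in 16 lists of cell type genes (vertical axis), filled where the mean RPKM was at least 1 and open below it, members in orange, with a black bar at the median over all genes of the list that had an entry and dashed lines at 1.5-fold. The list of cytosolic proteins of neutrophils has the lowest median, −1.23, and the single points farthest from 0 are Slc4a1, S100a9 and S100a8.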

How the data were processed

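The authors extracted total RNA from whole P9 testes, prepared libraries with the NEBNext Ultra kit, aligned paired-end reads to mm10 with TopHat2 2.0.9 and used HTSeq for counting. The deposited values are RPKM for each gene. The annotation release and gene lengths were not given in the sources used here. RPKM does not correct for a change in RNA composition.

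Entries were matched by Ensembl identifier to GENCODE M21 on GRCm38 (37606 of 39695, 94.7%). For any gene, the RPKM of both libraries differ by whole read numbers and the ratio of library sizes (1.0304). This gave the reads of each gene, with a whole gene length (within 0.02 bases) for 99.9% of 21201 matched genes above 0 in both libraries. Recovered reads summed to 104.16% and 103.84% of the library sizes, so some genes are off by a whole factor. For each member the length matched the mean annotated transcript length within 1 base, or no other whole length near the annotated lengths fitted. Reads of genes that met neither condition are given only with that limit.

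Differences are log2(RPKM + 1) of the mutant minus that of the control, and genes were counted from a mean RPKM of 1 upwards. Folds without a pseudocount carry 95% Clopper-Pearson intervals, and a count of 0 was taken to allow up to 3 reads. With 1 library per genotype nothing was tested. The procedure was checked on simulated libraries. These took the recovered lengths and library sizes as true, so errors in those lay outside the check. The members and the 16 gene lists were chosen with earlier results of these data known. Besides the members and *Bcas2*, the genes named were, for each list, the 2 with the highest mean RPKM and the 2 with the largest log2 ratio, fewer for lists outside granulocytes, and the S100a and stefin genes at the members' loci. *Ms4a3*, *Ly6g*, *Csf3r*, *Epx*, *Prg3*, *Spi1* and *Hbb-bt* were added after their values were seen. Python 3.11.15 with numpy 2.4.6, pandas 2.3.3, scipy 1.17.1 and matplotlib 3.10.9 was used. Splicing was not analysed here.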

Additional observations from a re-analysis of the deposited data

How the results depend on the processing

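No paired analysis was possible because each genotype had 1 library, and for the same reason no library could be left out. With pseudocounts of 0.1 and 0.01 the median log2 ratio of the members past the filter moved from −1.58 to −3.01 and −3.39, the values of *Ngp*, the gene at the median. *Prg2* moved to −4.53 and −7.80, and *Ltf* to −3.40 with 0.01. With a mean RPKM of at least 5 only *S100a8* and *S100a9* were left, both of them lower, so the counts past 1.5-fold and 2-fold became 2 and 2. Without *S100a8* and *S100a9* the summed reads gave a log2 ratio of −1.64 in place of −2.25. Among list genes other than members, the count more than 1.5-fold lower was 4, and it became 9 when each library's RPKM were scaled to add up to 1000000, and 10 with no filter, which counts genes below an RPKM of 1. The cause of the former was not tested. No member that was counted as lower turned to higher, which these settings could hardly have brought about, so it is no check of direction. A median log2 ratio set to 0 changed no count. Depth limits *Elane* and *Mpo*, with at most 7 reads in a library, and the absence of a replicate limits every difference.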
